A study of Mus musculus with 15 samples.

Results

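The piRNA cluster chr9_54197069_54288869, most of which lies in the gene for aromatase, Cyp19a1, was followed through small RNA libraries from mouse testis. The cluster is the interval chr9:54197069-54288869 (mm10), 91801 nt long and 1 of 647 piRNA clusters in the list that the study used. Its members are all intervals with reads on either strand that overlap it, at any length. Each distinct interval, strand and length is called a piRNA locus here. There were 217678 such loci in the cluster out of 8128951 in the whole series. The cluster was selected on measured values, the fold changes of Ψ-IP against input, because one of the largest falls lies in it. Its values in that comparison are therefore a description. Calls counted there are a description as well, and nothing is read from them.

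Pseudouridine (Ψ) is an isomer of uridine that is made in RNA after transcription. The study asked which small RNAs carry it, by 2 routes. CMC is a carbodiimide that binds Ψ and stops reverse transcriptase, so a small RNA with Ψ should drop out of a CMC-treated library, and mock-treated RNA served as the control. In the other route, RNA was bound by an antibody against Ψ (Ψ-IP) and sequenced beside the starting RNA (input) and the RNA that the antibody left unbound (flow-through).

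All 15 libraries came from the testes of male C57Bl/6 mice 8 weeks old. Each of the 5 groups had 3 libraries, and the labels give no genetic change in any of them. RNA of 17 to 40 nt was cut from a gel. The mock-treated and CMC-treated libraries were made with a NEBNext kit and the input, Ψ-IP and flow-through libraries with a Perkin Elmer Nextflex kit, so a difference between these sets of libraries cannot be told apart from the kit. The labels do not say whether replicates are separate mice, and p-values then measure only the spread between these libraries, which may be technical.

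piRNAs are small RNAs of the animal germ line that are bound by PIWI proteins and guide the silencing of transposons and the cleavage of other transcripts. In the adult testis most of them come from long precursor transcripts of intergenic or intronic clusters that spermatocytes switch on at the pachytene stage of meiosis. Many of these clusters are transcribed in both directions from a central promoter. PIWI proteins favour a uridine at the first base, and pairs of piRNAs from opposite strands that overlap at their 5′ ends by a fixed length mark the cycle of reciprocal cleavage known as ping-pong.

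The sequences of a few loci are shown to let the base content of those that CMC or the antibody separated be seen. They lie in the window chr9:54228865-54229164 around an annotated start of Cyp19a1, which held 13077 counts. The other windows of known sequence in the cluster held 60 and 45. The letters come from RefSeq (GRCm38.p6) and read 5′ to 3′ on the minus strand, with T for U and the first base in capitals. The 6 loci were chosen after their values were seen.
chr9:54228974-54229004, lower with CMC: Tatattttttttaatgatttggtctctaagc
chr9:54228974-54229002, lower with CMC: Tattttttttaatgatttggtctctaagc
chr9:54229096-54229123, higher in Ψ-IP than in flow-through: Ttctttgtgatcagtaattggcttctct
chr9:54229019-54229049, no count in flow-through: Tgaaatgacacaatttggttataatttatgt
chr9:54229133-54229162, higher in flow-through than in input: Cgcacagatcttttcccctccttgtggtca
chr9:54228948-54228978, with the fewest U of the 6: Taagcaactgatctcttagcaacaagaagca

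Total counts per library ranged from 35618956 to 58399368 in mock-treated, 24154811 to 48909154 in CMC-treated, 16571184 to 25063656 in input, 11575705 to 23935827 in Ψ-IP and 14305933 to 21494965 in flow-through. Levels are given as CPM, the counts of a feature scaled to the total counts of its library. No pair of libraries of 1 group agreed within sampling noise over the loci of the cluster (chi-square of 1.70 to 5.89 for each degree of freedom), and all 15 were kept as separate replicates. Reads carry no molecular identifiers, and the counts are not counts of independent molecules. How reads with several alignments were counted is not stated for these libraries, and where a repeat locus truly lies is uncertain.

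The cluster held a steady share of the piRNA reads. It took 2.99 to 3.06% of the counts in mock-treated libraries, 3.08 to 3.16% in CMC-treated, 3.40 to 3.47% in input, 3.28 to 3.39% in Ψ-IP and 3.46 to 3.49% in flow-through. The 3 mock-treated libraries did not overlap the 3 CMC-treated libraries, and the Ψ-IP libraries lay below both input and flow-through. These differences were small next to the share itself.

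Nearly all of the reads came from inside Cyp19a1 and few from its exons. Cyp19a1 (ENSMUSG00000032274.9) encodes aromatase, the enzyme that converts androgens to oestrogens, and lies on the minus strand at chr9:54165937-54268110. Its introns held 93.1% of the cluster's counts on the minus strand, with the libraries between 92.4 and 93.7%, and 6.74% on the plus strand. Its exons in GENCODE vM21 held 0.0028% in sense. The RefSeq window around a start of Cyp19a1, chr9:54228865-54229164, holds none of these exons, and its reads count as intronic here. The antisense gene Gldnos, whose introns held 0.128% on the plus strand, and the start of Gldn, which encodes gliomedin of the nodes of Ranvier, overlap the other end of the interval and held almost none.

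The strands divided at a single point. Minus-strand loci (177543) had 99% of their counts at chr9:54210268-54249418, a stretch of 39151 nt, and plus-strand loci (40135) at chr9:54215323-54284186. When the cut that best separates the strands was found in each library, it fell between 54249830 and 54249940 in all 15, with 0.158 to 0.327% of counts on the other side of it. Over the pooled libraries it fell between 54249873 and 54249877. The minus arm was the strong one in every library.

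**Figure D1:**
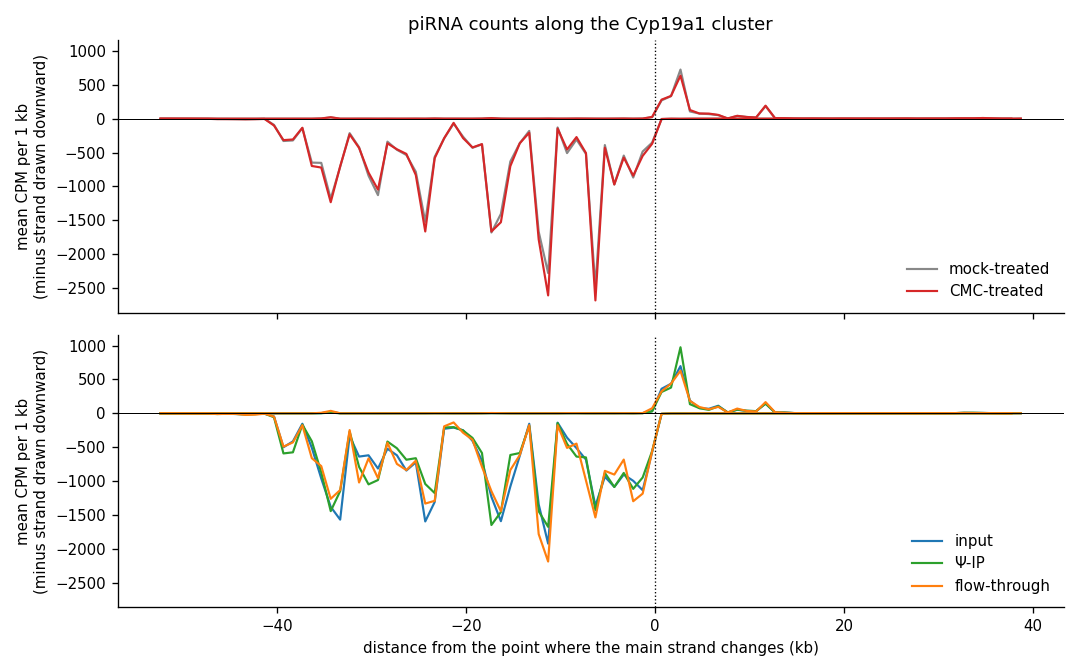
Mean CPM of 3 libraries per 1-kb bin (y axis, plus strand upward, minus strand downward) against the distance in kb from the point where the main strand changes (x axis), for mock-treated and CMC-treated (upper panel) and for input, Ψ-IP and flow-through (lower panel). Each set of libraries shows the same division of strands, with most of the signal on the minus strand.

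The reads had the length of piRNAs and mostly began with U. The most common length was 30 nt in all 15 libraries, with 28.2% ± 0.620 of the cluster's counts in mock-treated (SD, n = 3), 27.4% ± 0.909 in CMC-treated, 33.02% ± 0.187 in input, 32.96% ± 0.297 in Ψ-IP and 32.9% ± 0.273 in flow-through. In the window with known sequence, 87.0% of the 13077 counts began with U, against 92.1% over 36912 loci of the whole series in RefSeq promoter windows. By group it was 75.7% in flow-through and 86.2 to 90.5% in the others. A at the tenth base made up 21.3% there against 32.97%. Among overlaps of 1 to 20 nt between the 5′ ends of opposite strands, 10 nt was the most frequent in every library. It made up 8.80 to 9.32% in mock-treated, 8.75 to 9.35% in CMC-treated, 7.81 to 7.87% in input, 9.72 to 10.002% in Ψ-IP and 11.1 to 12.3% in flow-through, while no other overlap passed 6.04%. Over the whole series the share at 10 nt ranged from 8.78 to 12.7%. These are shares among overlaps, not among reads. Pairs at 10 nt, weighted by the smaller of their counts, came to 1.39 to 2.94% of the counts of the cluster's weaker strand. Over the whole series they came to 0.373 to 0.990% of the weaker strand.

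Counts were spread over many loci with a few strong ones. The loci shared 45574 5′ ends, with a median of 3 loci per end and at most 30, so neighbouring loci are often the same 5′ end with another length. The 10 strongest loci held 6.93% of the counts and the 1000 strongest 46.6%, while the 100 strongest 5′ ends held 30.9%. A total of 92812 loci (42.6%) were seen in 1 library only, and 6778 in all 15. Tests were run on loci whose counts summed to more than 20, which kept 18335 in the mock-treated and CMC-treated set (94.6% of its counts there) and 23956 in the Ψ-IP set (90.5%).

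By its mean over the 15 libraries, the strongest locus was chr9:54238670-54238700 on the minus strand, 31 nt long, in the endogenous retroviral repeat RMER10A. Its counts were 26797, 41800 and 26858 in mock-treated, 37895, 18454 and 17779 in CMC-treated, 13154, 6604 and 10286 in input, 3990, 3156 and 8842 in Ψ-IP and 15524, 11676 and 8968 in flow-through. Scaled to depth, these are 713 ± 41.0 CPM in mock-treated, 730 ± 69.0 in CMC-treated, 489 ± 79.4 in input, 328 ± 49.8 in Ψ-IP and 660 ± 54.2 in flow-through (SD, n = 3). Ψ-IP libraries were the lowest of the 5 groups, and mock-treated overlapped CMC-treated. The locus 1 nt shorter at its 5′ end, chr9:54238670-54238699, was at 250 ± 35.5 CPM in input, 275 ± 44.2 in Ψ-IP and 329 ± 43.7 in flow-through. In Ψ-IP over flow-through the longer locus fell by 0.75 ± 0.22 on the log2 scale (edgeR adjusted p = 0.00671) and the shorter one did not pass (0.00 ± 0.23, edgeR adjusted p = 0.993). The difference between the pair was not tested.

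The next by that mean was chr9:54243205-54243234, 30 nt long, in the DNA transposon Charlie18a, which ranked so through the mock-treated and CMC-treated libraries. It stood at 586 ± 24.2 CPM in mock-treated and 670 ± 81.6 in CMC-treated, but at 82.6 ± 5.28 in input, 88.1 ± 20.4 in Ψ-IP and 143 ± 25.2 in flow-through. The contrast between the sets went the other way at chr9:54226580-54226608, 29 nt long in a MIRb element. It stood at 8.48 ± 2.65 CPM in mock-treated, 10.3 ± 4.05 in CMC-treated and 243 ± 56.3 in input. In Ψ-IP it was at 395 ± 78.2, a higher mean than that of the strongest locus there, and in flow-through at 176 ± 20.97. Such differences were common. Over 9519 loci, log2 CPM of mock-treated and input correlated at 0.067 (Pearson), and 62.3% of these loci differed over 4-fold. Means over all libraries therefore mix unlike profiles.

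Repeats held the smaller part of the counts. RMER10A alone (chr9:54238334-54238765) carried 1796 CPM in the mean of the 15 libraries, 99.9923% of it on the minus strand. The hAT-Charlie family carried 886 CPM, B2 579, ERVL-MaLR 535, ERVK 495, L1 455, MIR 403, Alu 228, L2 106, CR1 35.6, hAT-Tip100 8.95, B4 3.61 and ERV1 1.14. MIR elements stood at 45.7 ± 6.85 CPM in mock-treated and at 583 ± 99.3 in input, whereas hAT-Charlie went from 1337 ± 46.5 to 502 ± 6.96. The share of the cluster's counts inside repeats was 19.6% ± 0.432 in CMC-treated against 18.3% ± 0.144 in mock-treated, 17.3% ± 0.609 in flow-through against 15.4% ± 0.294 in input, and 13.9% ± 0.817 in Ψ-IP. Groups did not overlap in any of these comparisons, each with p = 0.1 by a two-sided exact permutation test, the smallest that 3 against 3 libraries can give (0.18 after Benjamini-Hochberg adjustment over 9 share tests). When each locus was counted once rather than by its reads, the difference with CMC was 0.123 percentage points, that of flow-through over input 0.299 and that of Ψ-IP over flow-through -1.39.

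The cluster's total changed little in the comparisons. Read by edgeR's quasi-likelihood test over cluster totals, CMC-treated over mock-treated had a log2 fold change of 0.06 ± 0.021 (SE, adjusted p = 0.093 over 646 clusters, of which 2.17% passed the threshold of 0.01, 1.08% higher and 1.08% lower). Without the first CMC-treated library the change was 0.040 (edgeR adjusted p = 0.207). With the replicate number as a block the change stayed at 0.06 and the adjusted p was 0.0049, which passes. Over cluster totals the same-numbered libraries did not all deviate together (r of 0.135, 0.032 and 0.236), so the pairing behind the block is uncertain there. Flow-through over input had 0.05 ± 0.020 (edgeR adjusted p = 0.0695 over 547 clusters, 36.7% passed, 18.5% higher and 18.3% lower), and Ψ-IP over flow-through -0.08 ± 0.024 (edgeR adjusted p = 0.0162, 40.0% passed, 19.6% higher and 20.5% lower). These last 2 share the input or Ψ-IP libraries with the comparison that chose the cluster. With loci of 24 to 33 nt alone, Ψ-IP over flow-through was -0.12 and the edgeR adjusted p was 0.00127, and without the third Ψ-IP library it was -0.10 and 0.00647. Ψ-IP over input had -0.03 ± 0.022 (-0.012 without the second Ψ-IP library), where 20.3% of clusters passed, 9.87% higher and 10.4% lower.

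CMC treatment changed few loci of the cluster, at shares near those of the whole series. Of 18335 loci tested, 237 were higher (1.29%, against 1.07% of all 556583 loci tested) and 132 lower (0.720%, against 0.654%) at an edgeR adjusted p under 0.01. In either direction 369 loci passed (2.01%, against 1.73%). Where the average count was at least 100, 63 were higher and 69 lower of 1754, and in the series 1676 were higher and 1969 lower of 50099. DESeq2 called 135 higher and 104 lower of all the cluster's loci tested, and 3625 and 2721 in the series. The edgeR count for the cluster fell to 188 without the second mock-treated library and to 228 without the second CMC-treated library. Series counts under these omissions are not set beside them, so the fall is not read as particular to the cluster.

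The direction of the calls with CMC differed with length. Among loci of 24 to 27 nt, 117 of 5053 were higher (2.32%) and 13 lower (0.257%). At 28 nt there were 40 higher and 8 lower of 1867, and at 29 nt 40 and 23 of 2689. At 30 nt, the most common length, 11 of 3146 were higher (0.350%) and 42 lower (1.34%), at 31 nt 7 and 26 of 2213, and at 32 to 33 nt 3 and 12 of 1275. In the series as a whole 1.68% were higher and 0.316% lower at 24 to 27 nt, 1.97% and 0.552% at 28 nt, 0.991% and 0.928% at 29 nt, 0.307% and 1.16% at 30 nt and 0.120% and 1.06% at 31 nt. At 32 to 33 nt 0.117% of the series were higher and 0.775% lower. Among the shortest loci, of 14 to 23 nt, 19 of 2092 in the cluster were higher and 8 lower. In the series 914 of 70348 were higher and 129 lower at that length. The series thus also went from more rises at 14 to 28 nt to more falls at 30 to 33 nt, and was nearly even at 29 nt. The difference between lengths was not itself tested, since loci of 1 5′ end are not independent.

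**Figure D2:**
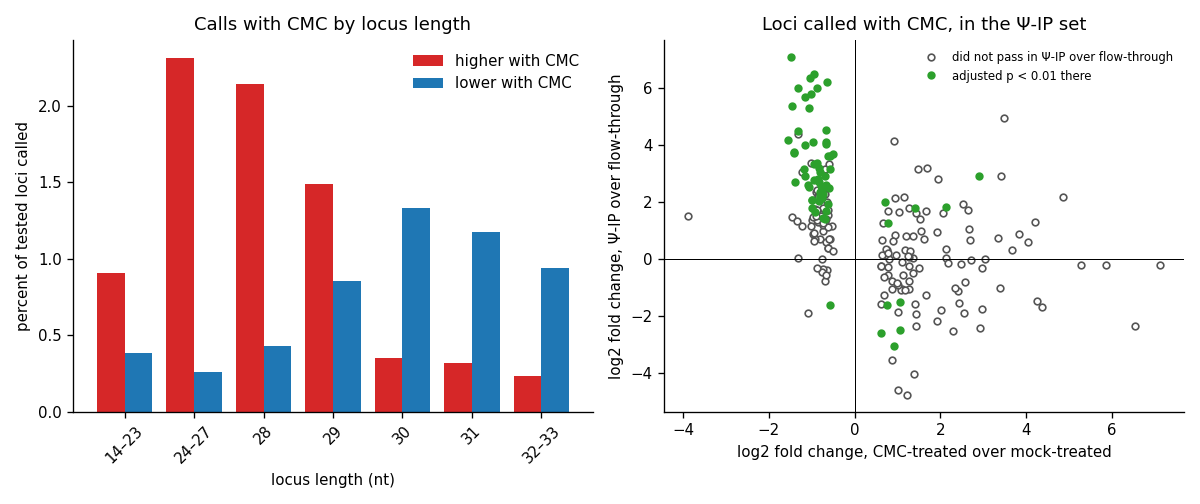
Left, percent of the tested loci of the cluster called higher or lower in CMC-treated than in mock-treated libraries (y axis, edgeR adjusted p under 0.01) by locus length in nt (x axis). Right, the called loci that were also tested in the Ψ-IP set, with log2 fold change with CMC (x axis) against log2 fold change of Ψ-IP over flow-through (y axis), filled where the latter passed. Calls turn from mostly higher at 24 to 29 nt to mostly lower from 30 nt, and 105 of 113 loci lower with CMC lie above 0 on the y axis.

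Loci are named below from those that averaged at least 100 counts over the 6 libraries compared, since folds of weaker loci are less certain. Some weaker loci that passed had larger fitted changes, in both directions and also at other lengths. Among them the largest rise with CMC was at chr9:54238670-54238697, 28 nt long in RMER10A. It had 9, 12 and 18 counts in mock-treated and 867, 458 and 475 in CMC-treated, or 0.302 ± 0.129 and 18.02 ± 0.834 CPM. Every CMC-treated library was far above every mock-treated one (log2 fold change 5.86 ± 0.21, edgeR adjusted p = 4.34e-25). It has the 3′ end of the cluster's strongest locus and starts 3 nt inside it, and that longer locus did not pass the test (713 CPM in mock-treated and 730 in CMC-treated, log2 -0.03 ± 0.10, edgeR adjusted p = 0.94).

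The other 4 named rises were also short loci within stronger ones. At chr9:54223850-54223876, 27 nt long, counts went from 60, 69 and 57 to 448, 218 and 273 (log2 2.67 ± 0.17, edgeR adjusted p = 3.5e-16), beside the locus chr9:54223850-54223878 that starts 2 nt before it, at 164 CPM in mock-treated and 154 in CMC-treated. Loci of 24 nt rose at chr9:54233586-54233609, from 97, 156 and 115 counts to 658, 351 and 508 (log2 2.42 ± 0.15), and at chr9:54225626-54225649, from 54, 85 and 53 to 195, 176 and 263 (log2 2.18 ± 0.21). One of 25 nt, chr9:54227622-54227646, went from 112, 235 and 113 to 502, 351 and 429 (log2 1.93 ± 0.16). The last 3 share their 5′ end, not their 3′ end, with a longer locus at least 10 times as abundant in mock-treated. The longer partner of the one at 54225649, chr9:54225619-54225649, itself rose with CMC, from 84.4 to 135 CPM (log2 0.61, edgeR adjusted p = 0.00153).

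Many of the loci that rose lay within a stronger one. Of the 237, 146 (61.6%) had the 3′ end of a longer locus with at least 10 times their level in mock-treated libraries, against 2057 of all 18335 tested (11.2%) and 3 of the 132 that fell (2.27%). The distance between the 5′ ends was 1 nt in 48 of the 146, 2 nt in 45, 3 nt in 31 and 4 nt in 12. A longer and stronger locus with the same 5′ end was found for 73 of the 237 (30.8%), against 3423 of those tested (18.7%). This property was chosen after the calls were seen, and both it and the calls use the mock-treated level, so the shares are a description.

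The 5 largest falls with CMC among loci averaging at least 100 counts were smaller than the 5 rises and lay at 29 to 31 nt. In a B2 element, chr9:54211414-54211444 (31 nt) had 140, 252 and 158 counts in mock-treated and 72, 46 and 49 in CMC-treated, or 4.06 ± 0.218 and 1.72 ± 0.224 CPM (log2 -1.33 ± 0.17, edgeR adjusted p = 7.89e-07). Its neighbour chr9:54211411-54211441 went from 109, 225 and 160 to 79, 44 and 31 (log2 -1.32 ± 0.19), and chr9:54211416-54211444, which shares its 5′ end, from 117, 240 and 121 to 72, 55 and 48 (log2 -1.03 ± 0.18). Without the second mock-treated library the last of these had -0.88 and an edgeR adjusted p of 0.0206, which does not pass. Scaled to depth, mock-treated libraries did not overlap CMC-treated ones at any of them.

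A fall on the plus arm was at chr9:54252357-54252387, 31 nt long. It had 178, 394 and 287 counts in mock-treated and 181, 61 and 85 in CMC-treated, or 6.30 ± 1.15 and 3.11 ± 0.588 CPM (log2 -1.06 ± 0.17, edgeR adjusted p = 3.22e-05). In the Ψ-IP set it had 2, 7 and 10 counts in flow-through and 26, 17 and 42 in Ψ-IP (log2 2.52 ± 0.58, edgeR adjusted p = 0.000238).

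The fifth, chr9:54228974-54229004, is the first of the sequences shown, with 17 U in 31 bases. Its counts were 285, 506 and 312 in mock-treated and 244, 91 and 100 in CMC-treated, or 8.15 ± 0.457 and 4.14 ± 0.739 CPM (log2 -1.02 ± 0.15, edgeR adjusted p = 1.05e-05). In the other set it had 25, 12 and 10 counts in input, 27, 36 and 25 in Ψ-IP and 0, 1 and 1 in flow-through. The locus 2 nt shorter at its 5′ end, chr9:54228974-54229002, with 16 U, also fell with CMC (log2 -0.95 ± 0.17, edgeR adjusted p = 0.000249) and had 0 counts in all 3 flow-through libraries against 1, 14 and 11 in Ψ-IP.

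Loci that fell with CMC were as a group high in Ψ-IP relative to flow-through. The CMC-treated and mock-treated libraries share none with the Ψ-IP set. Of the 132 loci, at 79 5′ ends, 113 were tested there. Their median log2 fold change was 2.12, against -0.02 over all the cluster's loci, and 105 of them (92.9%) were above 0. By edgeR's adjusted p under 0.01, 56 of the 113 were higher (49.6%, where 9.30% of all loci tested were higher) and 1 was lower. These 56 are 2.50% of the cluster's 2240 loci higher in Ψ-IP than in flow-through. Of 237 loci that rose with CMC, 110 were tested in the Ψ-IP set, with a median of -0.08, 5 higher and 5 lower. In 4 of the 113 a group had no count, and with those set to the level of 3 counts over the group the median was 2.12 again. The 9.30% covers loci of all levels and is not matched for abundance. In flow-through over input, 35 of the 113 were lower and 6 higher, where 9.73% and 6.45% of all loci tested were. Of the 110 that rose with CMC, 17 were lower and 4 higher there.

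Between Ψ-IP and flow-through, loci of the cluster passed at shares near those of the whole series. Of 23941 loci tested, 2240 were higher in Ψ-IP (9.36%, against 9.30% of all 686519) and 985 lower (4.11%, against 3.57%), which makes 13.5% in either direction against 12.9%. Where the average count was at least 100, 261 were higher and 262 lower of 888, and in the series 7981 were higher and 7047 lower of 24929. Ψ-IP libraries are shared with the comparison that chose the cluster. Among loci of 34 to 44 nt falls outnumbered rises, with 11 higher and 31 lower of 480 (2.29% and 6.46%), as they did over the whole series, where 641 were higher and 1177 lower of 16045.

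Among loci averaging at least 100 counts, the largest rise in Ψ-IP over flow-through was at chr9:54241429-54241460, 32 nt long and outside repeats. It had 0, 10 and 6 counts in flow-through, 458, 495 and 678 in Ψ-IP and 326, 225 and 271 in input, or 0.320 ± 0.283, 36.8 ± 7.52 and 13.6 ± 0.678 CPM (log2 7.13 ± 0.40, edgeR adjusted p = 9.2e-67). By the same limit it also had the largest fall in flow-through over input (log2 -5.68 ± 0.43, edgeR adjusted p = 1.35e-09). Flow-through lay far below both other groups, and the mock-treated and CMC-treated libraries held 2 counts each of it in total.

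Such loci came in families of lengths. The 5′ end 54233029 gave 3 of the named loci, of 29, 31 and 32 nt. At chr9:54232998-54233029 there were 18, 30 and 12 counts in flow-through, 822, 786 and 1261 in Ψ-IP and 549, 309 and 338 in input (log2 of Ψ-IP over flow-through 6.08 ± 0.34, edgeR adjusted p = 1.27e-66). On the plus arm chr9:54252492-54252521 had 4, 5 and 6 counts in flow-through and 157, 196 and 290 in Ψ-IP (log2 5.87 ± 0.43). Among the 783 5′ ends of the cluster with at least 2 calls in this comparison, 17 had calls in both directions.

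By the same limit the largest fall in Ψ-IP over flow-through was at chr9:54247341-54247371, 31 nt long. It had 473, 306 and 253 counts in flow-through, 11, 13 and 45 in Ψ-IP and 143, 68 and 96 in input, or 18.7 ± 2.89, 1.32 ± 0.498 and 4.97 ± 0.808 CPM (log2 -3.49 ± 0.35, edgeR adjusted p = 2.97e-21). Input lay between the unbound and the bound RNA. The next falls were at chr9:54247341-54247370 (log2 -3.27 ± 0.31), chr9:54249466-54249496 (-2.98 ± 0.37), chr9:54247335-54247365 (-2.94 ± 0.34) and chr9:54225062-54225091 (-2.85 ± 0.34), all on the minus arm and outside repeats.

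Flow-through and input differed at a like share of loci in the cluster and in the series. Of 23956 tested, 1579 were higher in flow-through (6.59%, against 6.45% of all 686853) and 2312 lower (9.65%, against 9.73%), or 16.2% in either direction for both. Input libraries are shared with the comparison that chose the cluster. Without the first input library 2036 loci of the cluster passed, without the second 2349 and without the third 2062, of 3891 with all libraries. Counts of the series without these libraries are not given beside them, and nothing particular to the cluster is read from the fall. Among loci averaging at least 100 counts the 5 largest rises overlap each other, led by chr9:54219021-54219050 with 20, 19 and 13 counts in input, 393, 285 and 172 in flow-through and 39, 45 and 60 in Ψ-IP (log2 3.92 ± 0.30, edgeR adjusted p = 1.22e-09).

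**Figure D3:**
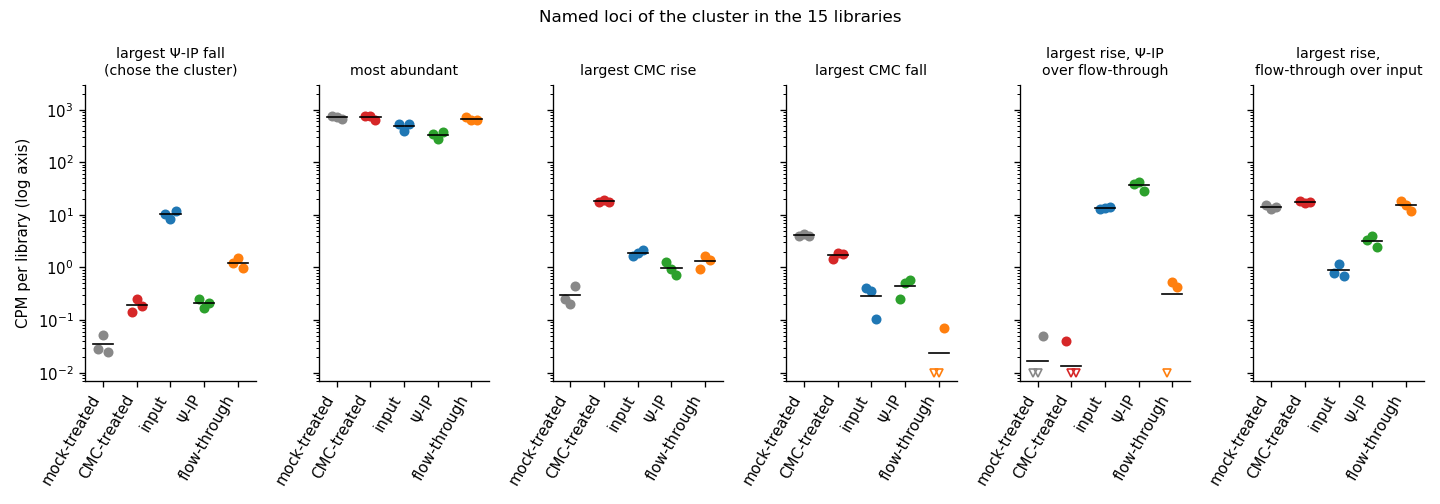
CPM in each of the 15 libraries (y axis, log axis, with open triangles for libraries without a count) by group (x axis) at 6 loci of the cluster, with the group mean as a bar. The locus that chose the cluster is at 8.21 to 12.1 CPM in input and at most 0.257 in Ψ-IP, and the other panels show the strongest locus and, among loci averaging at least 100 counts, the largest changes of the comparisons with CMC and flow-through.

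The locus that chose the cluster is chr9:54215939-54215968 on the minus strand, 30 nt long and outside repeats. It had 264, 136 and 228 counts in input, 3, 2 and 5 in Ψ-IP and 26, 28 and 14 in flow-through, or 10.3 ± 1.95, 0.213 ± 0.0422 and 1.23 ± 0.267 CPM. The fitted log2 fold change of Ψ-IP over input was -5.68 ± 0.39, a level 51.3-fold lower. Flow-through, the other fraction of the immunoprecipitation, was also below input in every library, by 3.25 on the log2 scale. This reuses the input counts that chose the locus and is a description. In the other set it had 1, 3 and 1 counts in mock-treated and 7, 6 and 5 in CMC-treated, at most 0.248 CPM in any library.

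Other lengths at its 5′ end, 54215968, were also highest in input when summed. The 13 other loci there had 250, 87 and 141 counts in input, 9, 12 and 10 in Ψ-IP and 28, 26 and 20 in flow-through, or 7.56 ± 2.36, 0.742 ± 0.310 and 1.37 ± 0.0565 CPM. They share their 5′ end with the chosen locus and are no independent evidence. The 29-nt form had 91, 35 and 69 counts in input, 6, 2 and 0 in Ψ-IP and 11, 12 and 7 in flow-through. The 31-nt form had 130, 40 and 66 counts in input, 3, 10 and 7 in Ψ-IP and 14, 8 and 5 in flow-through, where Ψ-IP and flow-through stood at about the same level. All 183 loci that overlap it on its strand summed to 645, 303 and 430 counts in input and 45, 33 and 60 in Ψ-IP. The chosen 5′ end gave most of these reads in input. Without the 183 loci the cluster held 34426 ± 349 CPM in input and 33397 ± 538 in Ψ-IP, against 34448 ± 353 and 33400 ± 538 with them.

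Among the 908 loci of the cluster that averaged at least 100 counts over input and Ψ-IP, this was the largest fall. The next were chr9:54238232-54238262 (log2 -4.70), with 291, 156 and 204 counts in input and 9, 6 and 5 in Ψ-IP, then chr9:54216805-54216834 (-4.004), chr9:54225478-54225507 (-3.61) and chr9:54238346-54238371 in RMER10A (-3.49). The largest rises among these loci were smaller, at chr9:54218235-54218265 (log2 2.64), with 51, 42 and 44 counts in input and 170, 187 and 395 in Ψ-IP, and at chr9:54211229-54211257 (2.15). As a count with no weight as a test, 1478 loci of 23948 were higher (6.17%, against 5.45% of all loci tested) and 2674 lower (11.2%, against 10.7%), from which nothing is read since the comparison chose the cluster.

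Summed into 1-kb bins on each strand, the cluster differed in places. CMC changed 3 of 72 bins (4.17%, against 4.94% of all bins tested) by edgeR's adjusted p under 0.01, 1 higher (1.33% of all were higher) and 2 lower (3.61%). With the replicate number as a block there were 9 (525 of 4293 in the series), and with a single library left out between 0 and 4, with 0 without the first or second mock-treated or the second CMC-treated library and 1 without the third mock-treated one. The plus-strand bin chr9:54252069-54253068, which holds the plus-arm fall with CMC, was at 725 CPM in mock-treated and 635 in CMC-treated (log2 -0.22 ± 0.04, edgeR adjusted p = 0.00257). It was at 697 in input, 975 in Ψ-IP and 628 in flow-through (log2 of Ψ-IP over flow-through 0.71 ± 0.05, edgeR adjusted p = 1.39e-07). The next bin on that strand, chr9:54253069-54254068, was higher with CMC (log2 0.23 ± 0.05, edgeR adjusted p = 0.00811), and the minus-strand bin chr9:54240069-54241068 lower (-0.20 ± 0.04, edgeR adjusted p = 0.00936).

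Bins in the Ψ-IP set passed far more often, in the cluster as in the series. Flow-through over input gave 18 higher (24.1% of all bins) and 13 lower (24.6%) of 66, or 47.0% in either direction against 48.6%. Ψ-IP over flow-through gave 13 higher (28.2% of all bins) and 15 lower (27%) of 65, or 43.1% against 55.2%. Changes were under 1 on the log2 scale in size except in a few weak bins, such as the plus-strand bin chr9:54215069-54216068 at -1.54 in Ψ-IP over flow-through. The minus-strand bin chr9:54228069-54229068, which holds the first of the shown sequences, was lower in flow-through than in input (log2 -0.65 ± 0.07, edgeR adjusted p = 1.52e-05) and higher in Ψ-IP than in flow-through (0.67 ± 0.07). With CMC it was at -0.28 ± 0.06 and did not pass (edgeR adjusted p = 0.0114).

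**Figure D4:**
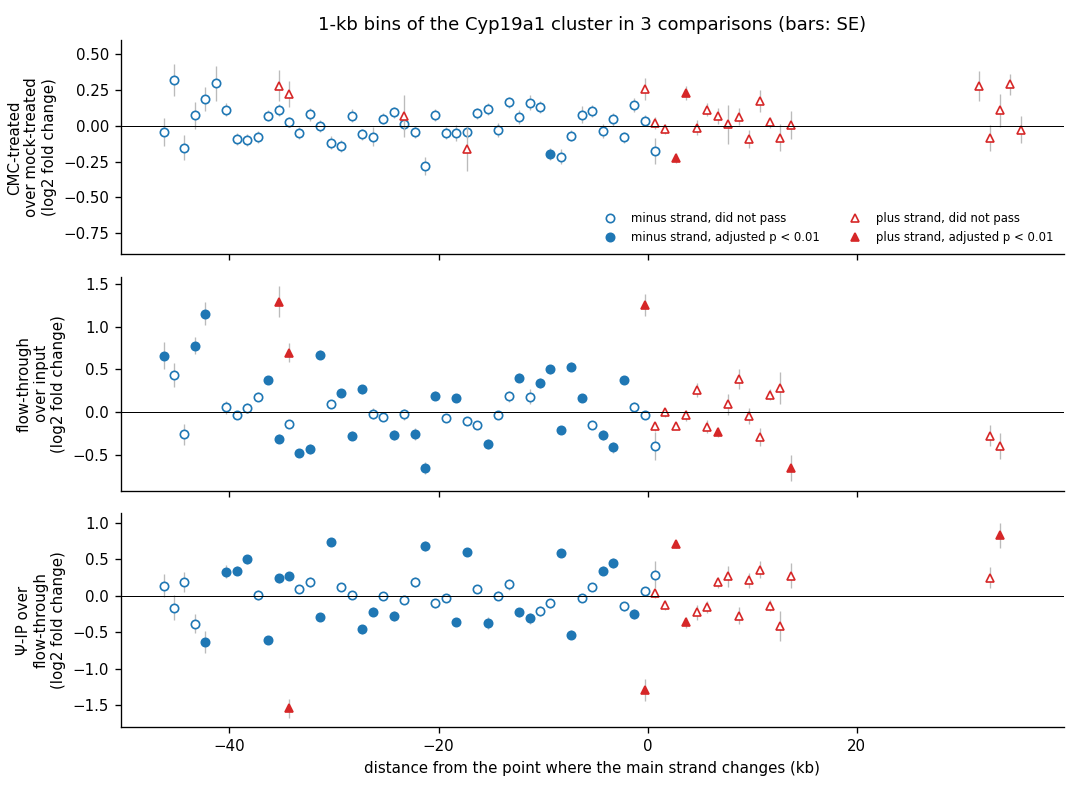
Log2 fold change of 1-kb bins with its SE (y axis, 1 panel per comparison) against distance in kb from the point where the main strand changes (x axis), for the minus strand (circles) and the plus strand (triangles), filled where the edgeR adjusted p was under 0.01. The 3 bins filled in the panel for CMC compare with 31 and 28 in the others, and their changes are within 0.25 of 0.

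Shares of the strands and lengths differed little in size between groups. The plus strand held 6.77% ± 0.104 of counts in mock-treated and 6.47% ± 0.159 in CMC-treated, which did not overlap (p = 0.1, the smallest possible, two-sided exact permutation test, 0.18 adjusted over the 9 share tests), 6.95% ± 0.0982 in input, 6.81% ± 0.1001 in flow-through and 7.38% ± 0.211 in Ψ-IP. The 3 Ψ-IP libraries were above the 3 flow-through libraries (p = 0.1, exact permutation test, 0.18 adjusted), and flow-through overlapped input (p = 0.2, exact permutation test). With each locus counted once, the plus strand was lower in Ψ-IP than in flow-through by 0.114 percentage points. The share of 30-nt loci overlapped between the groups of all 3 comparisons, with exact permutation p-values of 0.2, 0.6 and 0.7.

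In the window with known sequence, the change between Ψ-IP and flow-through rose with U content. The window held 646 loci with 36.7 ± 2.24 CPM in mock-treated, 27.8 ± 2.38 in CMC-treated, 35.3 ± 0.331 in input, 38.5 ± 3.54 in Ψ-IP and 26.7 ± 2.36 in flow-through. Of its loci 64, at 30 5′ ends, were tested in Ψ-IP over flow-through, and log2 fold change and percent U correlated at 0.80 (Pearson). Loci overlap and share bases, 6 of them had no count in flow-through, and without these 6 the value was 0.81, so it is a description of 1 window. Loci of at least 40% U, a limit chosen after the values were seen, had a median of 3.26 over 30 loci (3.02 with the 6 set to 3 counts over the group), and 13 of them were higher by edgeR (9.30% of all loci tested in the series were higher). The 34 loci of under 40% U had a median of -0.64. Within the first of these sets the correlation was 0.44 and within the second 0.11.

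The shown sequences span this range. The 28-nt locus chr9:54229096-54229123, with 14 U, had 3, 12 and 4 counts in flow-through and 15, 23 and 42 in Ψ-IP (log2 2.48 ± 0.60, edgeR adjusted p = 0.000443). The locus chr9:54229019-54229049, with 13 U, had 11, 11 and 6 counts in input, 12, 15 and 15 in Ψ-IP and none in flow-through. By contrast chr9:54229133-54229162, which begins with C and has 10 U, had 8, 12 and 3 counts in input, 43, 35 and 27 in flow-through and 4, 8 and 10 in Ψ-IP (log2 of flow-through over input 2.09 ± 0.48, edgeR adjusted p = 0.00195). The locus chr9:54228948-54228978, with 6 U, had 45, 19 and 13 counts in flow-through and 7, 0 and 7 in Ψ-IP (log2 -1.91 ± 0.67, edgeR adjusted p = 0.0266), which does not pass the threshold.

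With flow-through against input in the same window, 6 of 64 loci were lower (9.73% of all loci tested in the series were), all of at least 40% U, and 2 higher (6.45% of all), both of less. Log2 fold change and percent U correlated at -0.55 there (Pearson). The median was -2.24 at 40% U or more (-2.00 with 6 loci without a count set to 3 counts) and 0.08 under it. With CMC, 45 loci were tested, and the correlation with percent U was -0.29. The 32 of at least 40% U had a median log2 fold change of -0.38 and the 13 of less -0.29, and the 2 that passed were those shown, with 17 and 16 U. Whether U content or Ψ goes with the fall in CMC-treated and the rise in Ψ-IP was not tested, since sequence was used here for this window alone.

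**Figure D5:**
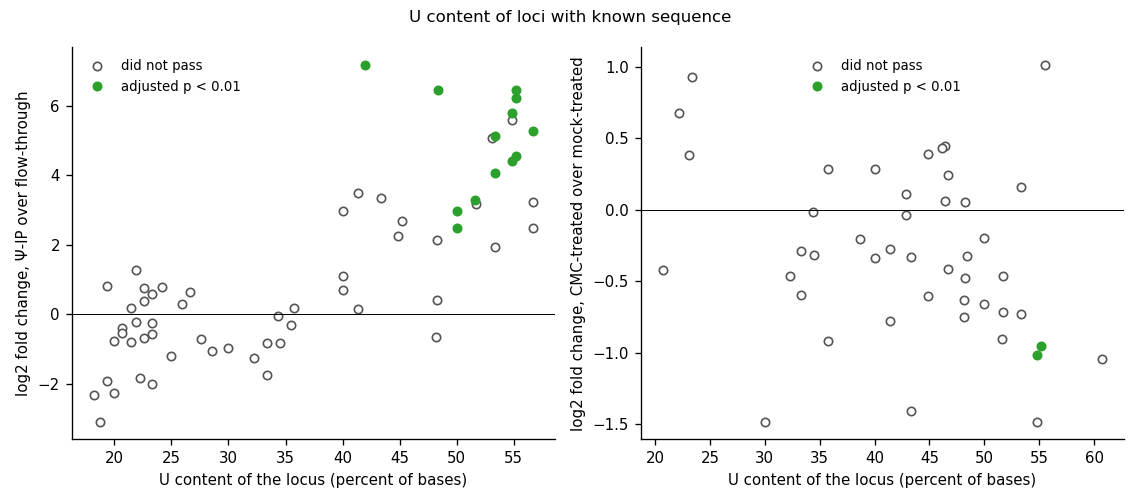
U content in percent of bases (x axis) against log2 fold change (y axis) of Ψ-IP over flow-through (left, 64 loci) and of CMC-treated over mock-treated (right, 45 loci) in the window with known sequence, filled where the edgeR adjusted p was under 0.01. On the left all 13 filled loci have at least 40% U, and the values of the 6 loci without counts in flow-through are fitted and depend on the prior count, while on the right both filled loci are below 0.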

How the data were processed

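Small RNA libraries from mouse testis were analysed from the authors' deposited counts, whole-number read counts per genomic interval, strand and length without normalization. The authors trimmed reads with Cutadapt, set tRNA fragments aside, aligned to mm10 with Bowtie 2 allowing up to 3 mismatches and intersected alignments with repeats and piRNA clusters using bedtools. The treatment of reads with several alignments is not given in the sources used here.

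All loci of the series were fitted with edgeR 4.0.16 (R 4.3.3), using TMM factors and the quasi-likelihood test, with Benjamini-Hochberg adjustment over all features tested and a threshold of 0.01. Loci needed more than 20 counts in total, and clusters and 1-kb bins an average of at least 100. SEs were taken from the fold change and its F statistic. CPM used library totals without TMM. Group shares were compared by two-sided exact permutation tests. Scripts were tested on simulated data. DESeq2 1.42.0 was an alternative, beside other filters, lengths, a replicate block and leaving out each library. Gene models were GENCODE vM21. Python 3.11.15, pandas 2.3.3, scipy 1.17.1 and matplotlib 3.10.9 were used.

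Named loci were the chosen one with its 5′ end, the 10 highest by mean CPM, and in each comparison up to 5 rises and 5 falls past the threshold with an average of at least 100 counts and 1 direction in all 9 pairs of libraries. The members and lists were chosen with earlier results of these data known.

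Replicate numbers come from the labels, and neither labels nor methods say what they mark. In mock-treated and CMC-treated, libraries with the same number deviated from their groups together (r of 0.170, 0.188 and 0.346 over 50099 loci). The main tests did not pair them, and the replicate number was a block only in an alternative fit. The pair of the second CMC-treated and the first mock-treated library reached 0.261, and over 646 cluster totals the same-numbered pairs had 0.135, 0.032 and 0.236. In the other comparisons not every pair passed 0.1.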

Additional observations from a re-analysis of the deposited data

How the results depend on the processing

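With the replicate block, the cluster total with CMC was 0.062 (edgeR adjusted p = 0.0049) and 9 bins passed, against 3 (525 and 212 of 4293 in the series). The block did not move the other counts by over 1.5 times, with 455 loci for CMC, 3799 for flow-through over input, 2701 for Ψ-IP over flow-through and 3598 for Ψ-IP over input. These locus counts are of the cluster alone. Nothing particular to the cluster is read from them. In the 3 comparisons without CMC the labels name the input and the flow-through of an IP with a replicate number. The paper's method keeps the unbound RNA of each Ψ-IP, but the labels do not say that 1 number marks 1 IP. Correlations of the same numbers were -0.112, 0.183 and 0.0122 for flow-through and input and 0.110, 0.232 and -0.0719 for Ψ-IP and flow-through. For Ψ-IP and input they were 0.309, 0.336 and -0.0456.

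Bins changed with CMC numbered 7 of 72 with DESeq2 (357 of 4293 in the series), 5 of 174 without a filter (335 of 14009), 8 of 69 at 24 to 33 nt (370 of 3987) and 0 to 4 of 72 with 1 library left out (23 to 277 of 4293). Locus counts in this paragraph are of the cluster alone, and nothing particular to it is read from them. For CMC, series counts with DESeq2 and at an average of at least 100 counts are given with the results above. Loci changed with CMC numbered 239 with DESeq2, 132 at an average of at least 100 counts and 188 to 388 with 1 library left out. That filter gave 577 loci for flow-through over input, 523 for Ψ-IP over flow-through and 519 for Ψ-IP over input, where it tested fewer loci. Leaving out 1 library gave 2036 to 4375 for flow-through over input and 2302 to 4178 for Ψ-IP over input, the latter with 2302 without the first and 2530 without the third input library, and DESeq2 gave 2587 there. Ψ-IP over input chose the cluster, so its counts say nothing about stability. The cluster total in Ψ-IP over flow-through was -0.12 at 24 to 33 nt and -0.10 to -0.068 with 1 library left out.

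With each locus counted once, the plus-strand difference was -1.01 percentage points for flow-through over input and -0.114 for Ψ-IP over flow-through (0.760 with more than 20 counts), the 30-nt difference for flow-through over input was 1.85, and the repeat differences were 0.123, 0.299 and -1.39. The 30-nt difference in Ψ-IP over flow-through was -0.213 at 24 to 33 nt, -0.120 with more than 20 counts and -0.0567 to 0.223 with 1 library left out, at -0.0567 without the third Ψ-IP and -0.0443 without the first flow-through library. The causes were not tested. With 3 libraries a group, the exact permutation tests of shares cannot go below p = 0.1, and loci near 20 counts carry wide errors.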
